A study of Homo sapiens with 12 samples.

Results

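The 7 mRNAs described here encode variant histones: H2AFZ (ENSG00000164032), H2AFV (ENSG00000105968), H2AFX (ENSG00000188486) and H2AFY (ENSG00000113648) of the H2A family, H3F3A (ENSG00000163041) and H3F3B (ENSG00000132475) of the H3 family, and the linker histone H1FX (ENSG00000184897). They were chosen by Ensembl identifier from a fixed list that also gives these symbols, and they are 7 of the 57820 genes counted. All 7 passed the filter on low counts, which left 16920 genes in the fit of all libraries. The current symbols are H2AZ1, H2AZ2, H2AX, MACROH2A1, H3-3A, H3-3B and H1-10, in the same order.

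The study sequenced polyadenylated RNA of the established human cell line HEK293, derived from embryonic kidney, in 12 libraries that form 6 groups of 2. The groups are anti-FLAG immunoprecipitates (IP) of the S38A, S38D and WT lines, and the 80S inputs of the S38A, S38D and WT lines. Every line is a stable Flp-In T-Rex line that overexpresses FLAG/HA-tagged RPL12, which belongs to the large subunit of the ribosome, and each IP was made from the rest of the 80S sucrose gradient fraction that its input was taken from. In S38A the tagged protein carries alanine in place of a serine, which removes the phosphorylation site; in S38D it carries aspartate, often used to imitate phosphorylation; in WT it has the normal sequence. Drug selection after transfection gave monoclonal colonies, so the form of RPL12 and the cell line cannot be told apart, and all groups keep the tag. No library from cells without tagged RPL12 is among those analysed, so RNA held by the beads alone cannot be told apart from RNA recovered through RPL12. Nothing in the labels says that replicates are separate cultures, and the spread behind the p-values may therefore be technical.

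Histones package DNA into nucleosomes. The bulk histones are made in S phase from mRNAs that end in a stem-loop and carry no poly(A) tail, whereas variant histones are made from mRNAs that mostly end in a poly(A) tail and are present outside S phase too. H2A.Z, the product of H2AFZ and H2AFV, sits in nucleosomes beside gene starts; H2A.X, the product of H2AFX, is phosphorylated around DNA double-strand breaks; and macroH2A1, the product of H2AFY, carries a large additional domain and marks repressed chromatin. H3.3 is encoded by both H3F3A and H3F3B with the same amino acid sequence and replaces H3 at transcribed genes. Linker histones such as H1.10, from H1FX, bind the DNA where it enters and leaves the nucleosome. H2AFX is known to give both a stem-loop and a polyadenylated mRNA, and the genes H2AFX and H1FX have no introns.

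IP libraries held 3186164 to 7430881 gene counts and inputs 7434431 to 8723130. Spike-in ERCC RNA took 1.44% to 5.43% of counts in IP and 0.116% to 0.484% in input. Counts of single variant histone genes ran from 118, for H3F3A, to 2711, for H2AFV. Levels are CPM values, the count of a gene relative to the library total, scaled by TMM (trimmed mean of M values); they are not divided by transcript length, so they compare libraries and not genes. Fold changes and p-values come from edgeR's quasi-likelihood test fitted to all genes, with Benjamini-Hochberg adjustment over all genes tested and calls at adjusted p under 0.05.

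The first comparison set IP against input over the 3 lines, to see which variant histone mRNAs stood higher or lower among the RNAs recovered with tagged RPL12. In this comparison 4 of the 7 mRNAs rose (H2AFZ, H2AFX, H3F3B and H1FX), 1 fell (H3F3A) and 2 did not pass (H2AFV and H2AFY). Of all genes tested, 31.8% were called, 15.9% higher and 15.9% lower. The linker histone and H2AFX mRNAs rose furthest, H1FX by 2.95-fold and H2AFX by 2.32-fold. The median log2 change was 0.26 over the 7 mRNAs and -0.04 over all genes. Of the 7 mRNAs, 4 lay in the most abundant quartile of tested genes, where 37.3% of genes were called higher and 12.6% lower, with a median log2 change of 0.17; H2AFX, H3F3A and H1FX lay in the next quartile, where 14.2% were called higher and 24.7% lower, with a median of -0.06.

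**Figure D1:**
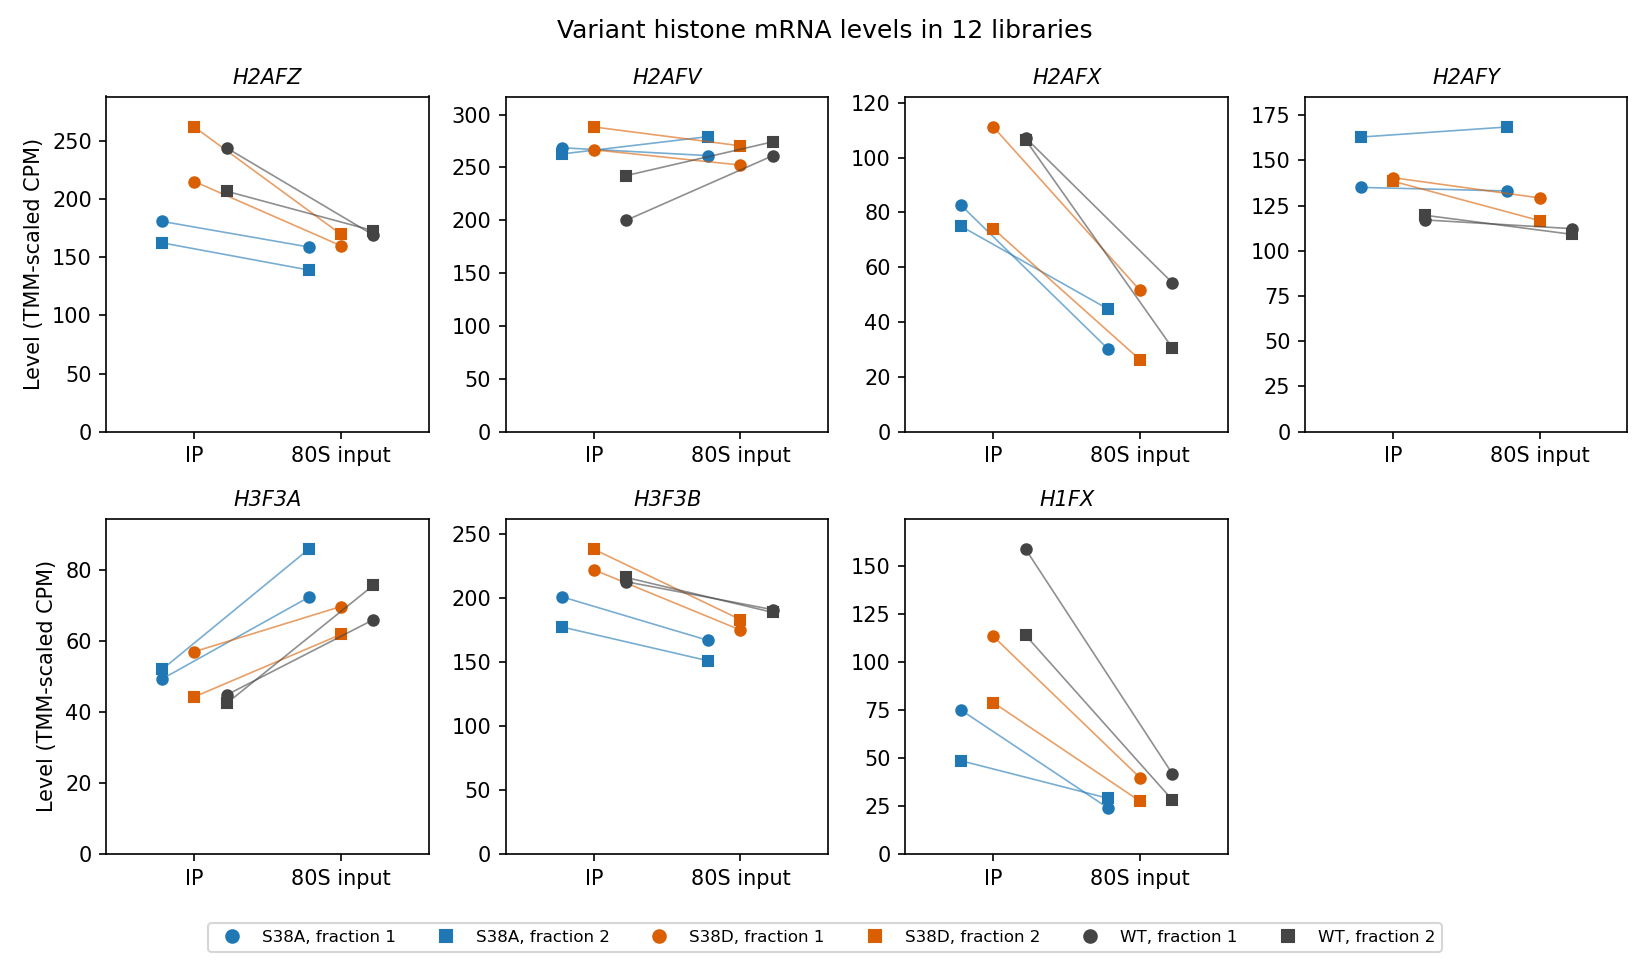
TMM-scaled CPM (vertical axes, from 0) of each mRNA in IP, left, and 80S input, right, with lines joining the libraries of 1 fraction and colours for the lines. H2AFX and H1FX stood higher in all 6 IP libraries than in any input, H3F3A stood lower in all 6, and the H2AFV and H2AFY points overlapped.

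H1FX, a linker histone variant, had 48.6 to 159 CPM in the 6 IP libraries, with a median of 96.1, against 24.0 to 41.9 CPM in the 6 inputs, with a median of 28.6. Every IP library lay above every input. The log2 change was 1.56 (SE 0.17, 95% interval 1.20 to 1.92, edgeR adjusted p = 0.00013), which placed H1FX at the 99.6th percentile of all genes tested and at the 99.9th within its quartile of abundance. The rise was seen in 6 of 6 fractions, from 1.67-fold in the second S38A fraction to 4.03-fold in the second WT fraction.

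H2AFX, the variant marked at DNA breaks, had 74.0 to 111 CPM in IP (median 94.5), against 26.2 to 54.4 CPM in input (median 37.7). Again no input reached the lowest IP library. The log2 change was 1.22 (SE 0.19, 95% interval 0.80 to 1.63, edgeR adjusted p = 0.00068), at the 99.0th percentile of all genes, and the rise held in 6 of 6 fractions, from 1.67-fold to 3.48-fold. The inputs of H2AFX differed between replicates of a line by 1.48-fold in S38A, 1.96-fold in S38D and 1.78-fold in WT, a spread wider than in at least 92.7% of genes with a mean of 20 CPM or more.

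H2AFZ, which encodes the main H2A.Z protein, rose by less. It had 162 to 262 CPM in IP (median 211), against 139 to 173 CPM in input (median 164). The log2 change was 0.38 (SE 0.09, edgeR adjusted p = 0.0086), or 1.30-fold, and IP was above input in 6 of 6 fractions by 1.14-fold to 1.54-fold, although the groups overlapped across lines. H2AFV, which encodes the other H2A.Z protein, had 200 to 288 CPM in IP (median 265), against 252 to 279 CPM in input (median 266). Its log2 change was -0.07 (95% interval -0.26 to 0.12, edgeR adjusted p = 0.58), with IP above input in 3 of 6 fractions. For H2AFY, the macroH2A1 mRNA, the values were 117 to 163 CPM in IP (median 137) and 109 to 168 CPM in input (median 123), with a log2 change of 0.09 (95% interval -0.11 to 0.29, edgeR adjusted p = 0.51). Within a fraction the H2AFY levels of IP and input stayed within 1.19-fold of each other.

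H3F3A, the first of the H3.3 genes, was the member that fell. It had 42.5 to 57.1 CPM in IP (median 47.1), against 61.9 to 86.0 CPM in input (median 71.1), with no overlap. The log2 change was -0.57 (SE 0.10, 95% interval -0.79 to -0.36, edgeR adjusted p = 0.0012), at the 12.1th percentile of all genes, and IP was below input in 6 of 6 fractions. H3F3B, which encodes the same protein, had 177 to 238 CPM in IP (median 214), against 151 to 191 CPM in input (median 179). It rose by 0.26 on the log2 scale (SE 0.08, edgeR adjusted p = 0.029), or 1.20-fold, with IP above input in 6 of 6 fractions.

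**Figure D2:**
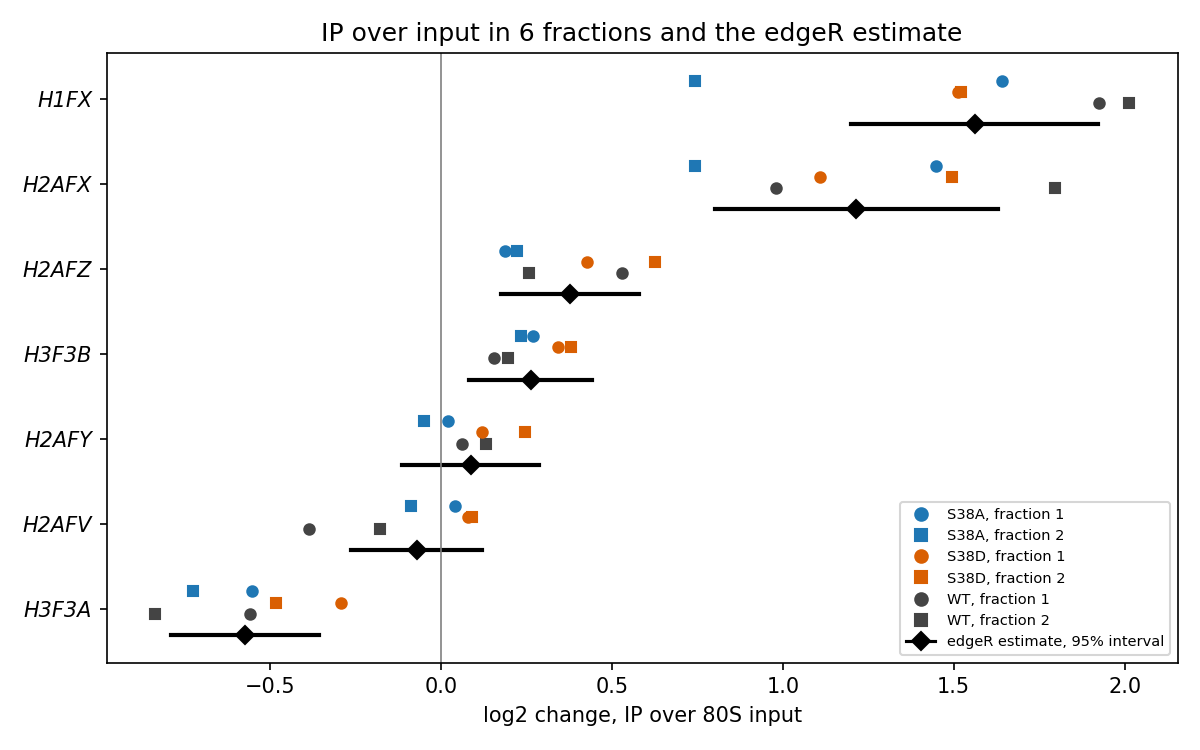
log2 change of IP over 80S input (horizontal axis) for each mRNA, as 1 point per fraction (coloured by line) and as the edgeR estimate over the 3 lines with its 95% interval (black diamond and bar). The estimates run from 1.56 for H1FX to -0.57 for H3F3A, and for 5 of the 7 mRNAs all 6 points lie on one side of 0.

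Counted over fractions, 4 of the 7 mRNAs had IP above input in 6 of 6 fractions and 1 had IP below input in 6 of 6; among all genes tested these shares were 20.3% and 23.3%. Levels of the 6 IP and 6 input libraries did not overlap for 3 mRNAs, H1FX and H2AFX above and H3F3A below, against 13% of all genes (6.15% above and 6.86% below). H1FX, H2AFX and H3F3A passed in all 19 alternative analyses, with log2 ranges of 1.34 to 1.66, 1.00 to 1.40 and -0.79 to -0.52. Scaling by total counts, which moved the median of all genes to -0.25, gave H2AFZ 0.16 (edgeR adjusted p = 0.15) and H3F3B 0.05 (adjusted p = 0.67), and H2AFV passed as lower at -0.28 (adjusted p = 0.027). H3F3B also did not pass without a filter on low counts (edgeR adjusted p = 0.18) or when any of 8 single libraries was left out (adjusted p = 0.050 to 0.11).

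**Figure D3:**
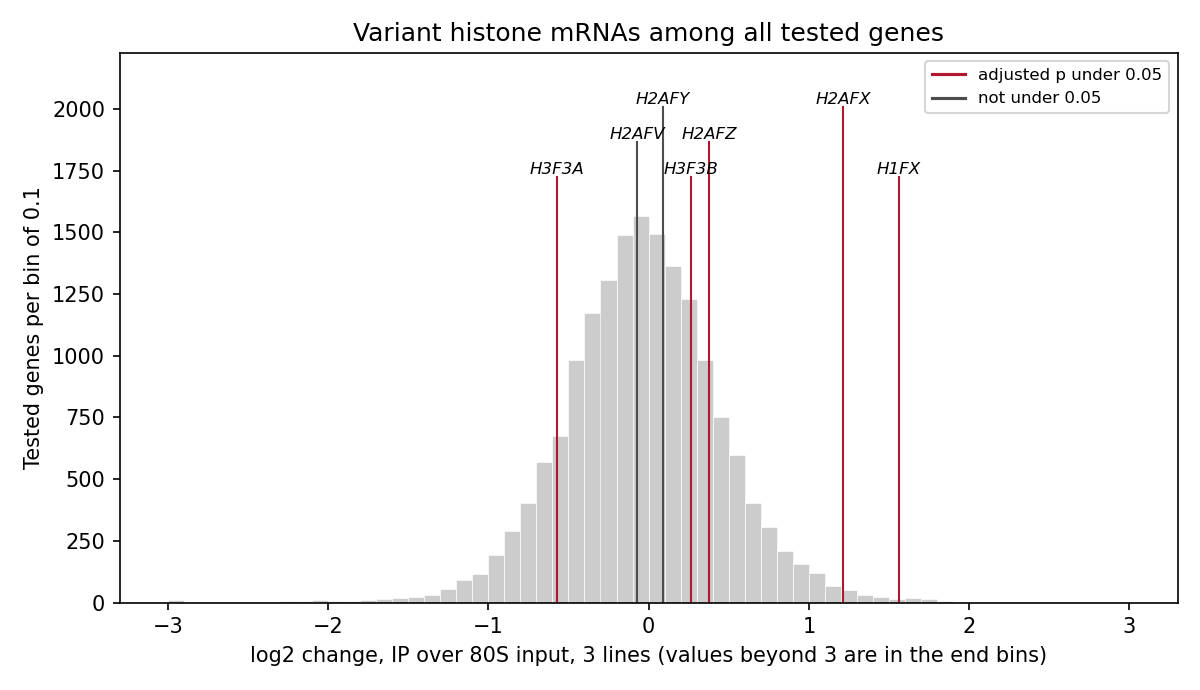
Number of tested genes per bin of log2 change of IP over 80S input over the 3 lines (grey bars), with a line at the value of each variant histone mRNA. H1FX and H2AFX stand in the right tail at 1.56 and 1.22, and H3F3A stands left of most genes at -0.57.

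The genes differ in the DNA before their start sites, and the stretches below are shown because the 4 members that rose in IP share a motif there, which was chosen with these results known. RefSeq windows of 300 bases, 250 before to 50 after an annotated start on GRCh38.p14, were found by symbol for the 7 genes, 11 windows in all. The letters TATAAA and CCAAT were searched on both strands. The 120 bases before the start are printed 5′ to 3′ on the strand of the gene, with both motifs in capitals, and CCAAT reads as its reverse complement where it lies on the other strand. The 2 windows of H2AFY are not printed. For H3F3A the last of 4 annotated starts is shown.
H1FX, chr3:129316287-129316406, minus strand: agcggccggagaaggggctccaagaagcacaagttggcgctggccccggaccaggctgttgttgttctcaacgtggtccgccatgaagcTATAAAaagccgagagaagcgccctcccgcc
H2AFX, chr11:119095466-119095585, minus strand: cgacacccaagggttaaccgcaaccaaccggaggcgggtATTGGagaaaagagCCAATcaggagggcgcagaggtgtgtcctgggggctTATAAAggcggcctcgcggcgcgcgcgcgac
H2AFZ, chr4:99950276-99950395, minus strand: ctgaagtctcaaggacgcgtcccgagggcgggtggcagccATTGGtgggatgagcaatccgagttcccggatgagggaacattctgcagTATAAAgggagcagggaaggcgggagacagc
H3F3B, chr17:75779780-75779899, minus strand: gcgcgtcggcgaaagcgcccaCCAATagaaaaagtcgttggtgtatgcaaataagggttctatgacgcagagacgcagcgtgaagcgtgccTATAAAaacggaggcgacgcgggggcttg
H2AFV, chr7:44848088-44848207, minus strand: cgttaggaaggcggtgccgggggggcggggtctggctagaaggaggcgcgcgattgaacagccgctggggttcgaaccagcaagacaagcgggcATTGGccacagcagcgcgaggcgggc
H3F3A, chr1:226062596-226062715, plus strand: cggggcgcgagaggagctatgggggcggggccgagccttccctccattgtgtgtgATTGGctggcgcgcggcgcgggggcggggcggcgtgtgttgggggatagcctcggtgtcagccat

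TATAAA, the core of the TATA box, was found in the windows of 4 of the 7 genes, H2AFZ, H2AFX, H3F3B and H1FX, with its first base 29 to 31 bases before the start. Of all 35116 RefSeq windows, 11.5% hold TATAAA on either strand, and 2.30% hold it on the strand of the gene with its first base 20 to 40 bases before the start. The 4 genes with TATAAA are the 4 called higher in IP, but the motif was chosen with these calls known, so the match tests nothing. The share of all genes with TATAAA that were called higher was not computed. With total-count scaling H2AFZ and H3F3B were not called, and H3F3B passed in 9 of the 19 alternatives. The 3 genes whose windows do not hold these letters are H2AFV and H2AFY, which did not pass, and H3F3A, which fell. CCAAT, the core of another common promoter element, was found for 6 of the 7 genes, H1FX being the exception. By window, TATAAA was in 4 of the 11 and CCAAT in 8 of the 11, against 11.5% and 34.6% of all windows. These matches describe the letters only. No measurement was read from these windows, whose build differs from the hg19 build named for the counts.

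A ratio of 2 genes counted in the same library does not depend on how libraries are scaled, so related genes were also compared as count ratios. The size of a ratio depends on transcript length and on how many reads can be assigned to each gene, and only its difference between IP and input is read here. H3F3A and H2AFZ in particular have processed pseudogenes, and the sources used here do not give how reads with several matches were counted. Both ratios differed between IP and input in the same direction in 6 of 6 fractions.

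The H3F3B count was 3.40 to 5.37 times the H3F3A count in IP (median 4.40), against 1.75 to 2.95 times in input (median 2.50), without overlap. By line, the ratios were 4.07 and 3.40 in S38A IP against 2.30 and 1.75 in S38A input. In the S38D line they were 3.89 and 5.37 in IP against 2.50 and 2.95 in input. For WT they were 4.74 and 5.08 in IP against 2.89 and 2.49 in input. The ratio was thus 1.79-fold higher in IP, a log2 difference of 0.84 ± 0.15 (SD, n = 6 fractions; exact permutation test, two-sided, swapping IP and input inside each fraction, p = 0.031, and 0.031 after Benjamini-Hochberg adjustment over the 2 ratios). This is the smallest p that 64 assignments can give.

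The H2AFV count was 0.82 to 1.62 times the H2AFZ count in IP (median 1.21), against 1.54 to 2.01 times in input (median 1.59). The log2 difference was -0.45 ± 0.26 (SD, n = 6 fractions; two-sided exact permutation p = 0.031, adjusted 0.031), the ratio being lower in IP in 6 of 6 fractions. It differed most in the first WT fraction, at -0.91, and least in the first S38A fraction, at -0.15. Of the joint counts of the 2 H2A.Z mRNAs, H2AFZ therefore took a larger share in IP than in input, whatever the scaling. Its count exceeded that of H2AFV only in the first WT IP library, where the ratio was 0.82.

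**Figure D4:**
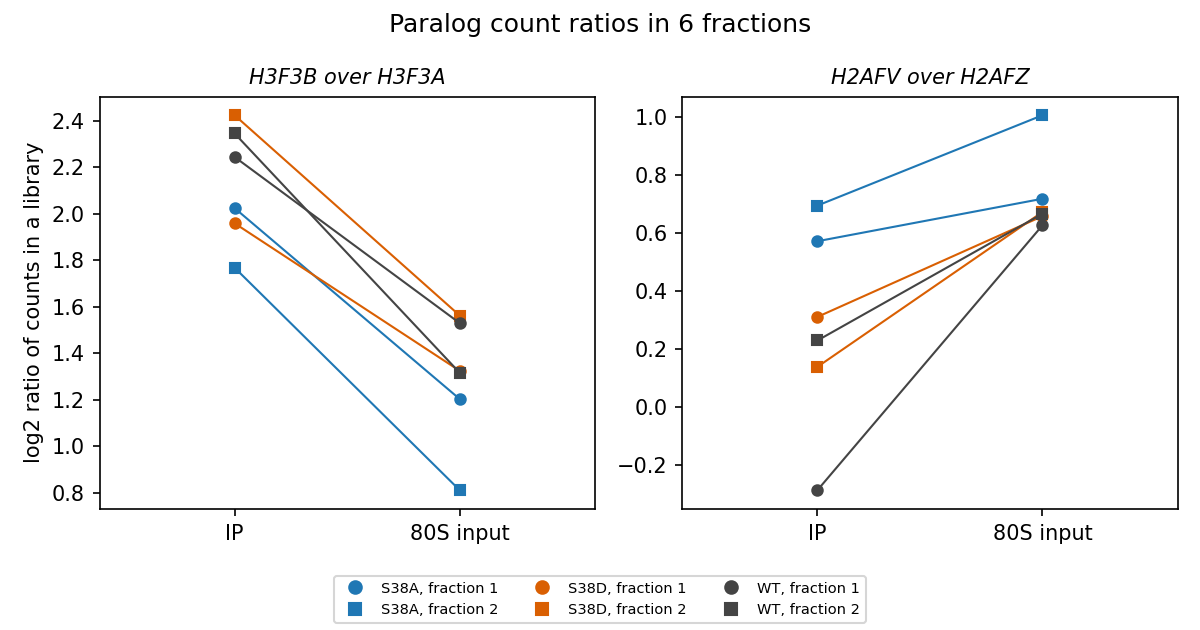
log2 ratio of the counts of 2 related genes in the same library (vertical axes, which do not start at 0), for IP, left, and 80S input, right; each line joins the 2 libraries of 1 fraction. The H3F3B to H3F3A ratio stands higher in IP in 6 of 6 fractions, and the H2AFV to H2AFZ ratio stands lower in 6 of 6.

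Each line was then taken alone, with 2 IP and 2 input libraries. In S38A 0 of the 7 mRNAs passed, and 0% of all genes did. In edgeR 3 of the 7 were at unadjusted p under 0.05, as were 2575 of the 16920 genes tested. DESeq2 called 3 of the 7 and 463 of all genes, and voom called 0. H1FX had 75.0 and 48.6 CPM in S38A IP, against 24.0 and 29.0 CPM in S38A input (log2 1.21, edgeR adjusted p = 0.14). H2AFX had 82.6 and 74.9 CPM in S38A IP, against 30.3 and 44.8 CPM in S38A input (log2 1.07, adjusted p = 0.18). H3F3A had 49.4 and 52.1 CPM in S38A IP, against 72.4 and 86.0 CPM in S38A input (log2 -0.64, adjusted p = 0.15). For these 3 genes the IP and input libraries of the line did not overlap, which is a weak sign with 2 libraries a side. The same held for H2AFZ, with 181 and 162 CPM in S38A IP against 159 and 139 CPM in S38A input. It also held for H3F3B, with 201 and 177 CPM in S38A IP against 167 and 151 CPM in S38A input. The share of all genes without overlap in this line was not computed. With the fraction as a block, which pairs each IP with its own input, 3 of the 7 passed, where 12.3% of all genes were called. They were H1FX at 1.19 (edgeR adjusted p = 0.0074), H2AFX at 1.08 (0.014) and H3F3A at -0.64 (0.013).

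In S38D 2 of the 7 mRNAs rose, H1FX and H2AFX, where 4.87% of all genes were called, 3.13% higher and 1.74% lower. H1FX had 113 and 78.9 CPM in S38D IP, against 39.7 and 27.5 CPM in S38D input (log2 1.52, SE 0.29, edgeR adjusted p = 0.023). H2AFX had 111 and 74.0 CPM in S38D IP, against 51.5 and 26.2 CPM in S38D input (log2 1.25, SE 0.33, adjusted p = 0.0499). Scaled by total counts H2AFX did not pass (0.99, edgeR adjusted p = 0.077) and H3F3A passed as lower (-0.63, adjusted p = 0.049). For both H1FX and H2AFX the first fraction stood above the second in IP and in input alike. With the fraction as a block H2AFZ (0.53, edgeR adjusted p = 0.011) and H3F3B (0.36, 0.030) passed as well, making 4 of 7, where 20% of all genes were called. The S38D calls depended on single libraries: without the first or second IP or the first or second input of S38D 0 of the 7 passed, and without any 1 library of the S38A line or any 1 WT input 1 passed, H1FX. Without either WT IP library 3 passed, H2AFZ being added.

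In WT 2 of the 7 mRNAs rose (H1FX and H2AFX) and H3F3A fell, where 11.2% of all genes were called, 5.77% higher and 5.48% lower. H1FX had 159 and 114 CPM in WT IP, against 41.9 and 28.3 CPM in WT input (log2 1.95, SE 0.29, edgeR adjusted p = 0.0063). H2AFX had 107 and 106 CPM in WT IP, against 54.4 and 30.6 CPM in WT input (log2 1.33, SE 0.33, adjusted p = 0.027). H3F3A had 44.8 and 42.5 CPM in WT IP, against 66.1 and 75.8 CPM in WT input (log2 -0.70, SE 0.18, adjusted p = 0.027). The WT calls of the 7 mRNAs also depended on single libraries. With 1 library left out the log2 change of H1FX ran from 1.69 to 2.26, of H2AFX from 0.97 to 1.80 and of H3F3A from -0.80 to -0.60. With only the 4 WT libraries in the fit 0 of the 7 passed. In that 4-library fit 0 of all genes were called. With limma's voom, which called 597 of all genes, H2AFX (adjusted p = 0.076) and H3F3A (adjusted p = 0.10) were lost. Scaled by total counts H2AFX was lost (1.05, edgeR adjusted p = 0.0501) and H2AFV passed as lower (-0.53, adjusted p = 0.037). H2AFZ passed too once the fraction entered as a block (0.39, edgeR adjusted p = 0.027), making 4 of 7, where 28.5% of all genes were called.

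The effect of the RPL12 form was asked as the difference in IP over input between lines. Of the 21 tests of the 7 mRNAs over the 3 pairs of lines 0 passed in edgeR, and 0 were at unadjusted p under 0.05. Of all genes 0% passed. Unadjusted p was under 0.05 in 393 genes for S38A versus WT, 134 for S38D versus WT and 109 for S38D versus S38A. DESeq2 and voom also called 0 of the 7. For S38A versus WT the log2 differences ran from -0.74 to 0.25. The widest was that of H1FX, at -0.74 (95% interval -1.61 to 0.13). For S38D versus WT they ran from -0.43, for H1FX, to 0.36, for H2AFV, and for S38D versus S38A from 0.11 to 0.33, the highest being H2AFZ (95% interval -0.16 to 0.82). With the fraction as a block 0 of the 21 passed too, but 2 were below 0.05 before adjustment. They were H1FX for S38A versus WT (-0.78, unadjusted p = 0.012, edgeR adjusted p = 0.67) and H2AFV for S38D versus WT (0.37, unadjusted p = 0.034, edgeR adjusted p = 0.99). The share of all genes below 0.05 with the block is not given here. With 1 library left out the H1FX difference ran from -1.10, without the first S38A IP library, to -0.45, without the second, and was -1.14 between the IP libraries alone. The H1FX difference for S38D versus WT ran from -0.75, without the first WT input, to -0.14, without the first S38D input. The H2AFV difference was 0.19 without the first WT IP library. The intervals are wide, and a p that misses the threshold does not show that the lines act alike. The 3 comparisons share libraries and are not independent of each other.

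Some of these levels, as scaled by TMM, moved with the depth of the IP libraries. Ordered from 3186164 to 7430881 gene counts, the IP libraries were the first WT, second S38D, first S38D, second WT, first S38A and second S38A fraction, and the spike-in share fell along the same order, from 5.43% to 1.44%. In that order the summed level of the 7 mRNAs was 1084, 1124, 1126, 1047, 992 and 941 CPM, lowest in the 2 deepest libraries. The TMM factors were 0.827, 0.887, 0.920, 0.916, 0.987 and 1.04 in the same order. A larger factor lowers the level, so the order of the sums depends on the scaling. H1FX had 159, 78.9, 113, 114, 75.0 and 48.6 CPM, highest in the shallowest and lowest in the deepest library. H2AFV had 200, 288, 267, 242, 269 and 263 CPM, lowest in the shallowest library and highest in the next. H2AFY had 117, 138, 140, 120, 135 and 163 CPM, lowest in the shallowest and highest in the deepest. At every step of the order 0 of the 7 mRNAs fell and 0 rose, against 1.71% and 0.473% of all genes tested. The summed input level ran from 846 to 897 CPM, below all 6 IP libraries. TMM factors were 1.03 to 1.12 in input and 0.827 to 1.04 in IP, so this separation depends on the scaling. How many genes are separated in this way on each scaling was not computed. Both S38A IP libraries were the deepest of their kind, so depth and line cannot be told apart there, and the part of depth in the IP levels was not tested.

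**Figure D5:**
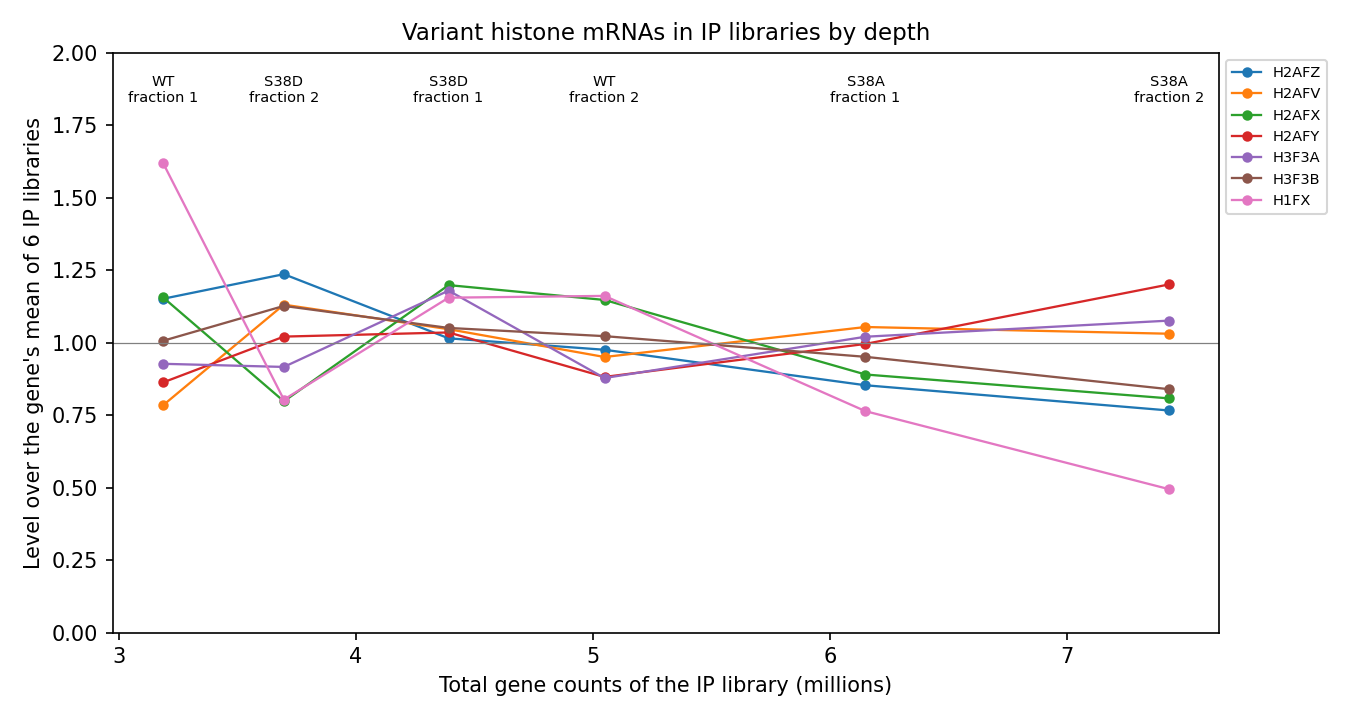
Level of each mRNA in an IP library divided by its own mean over the 6 IP libraries (vertical axis) against the total gene counts of the library (horizontal axis), with the fraction named above each point. H1FX stands highest in the shallowest library, at 159 CPM, and lowest in the deepest, at 48.6 CPM, while H2AFV and H2AFY stand higher in the deepest library than in the shallowest.

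The 80S inputs were compared between lines to see whether variant histone mRNAs differed before IP. For S38A versus WT 0 of the 7 mRNAs passed in edgeR, and 0% of all genes did. Unadjusted edgeR p was under 0.05 for 1 of the 7 mRNAs and for 2566 of the 16728 genes tested. H2AFY, at unadjusted p = 0.011, had 133 and 168 CPM in S38A input, against 112 and 109 CPM in WT input (log2 0.47, 95% interval 0.14 to 0.80, edgeR adjusted p = 0.21). The S38A values both lay above the WT values, and the IP libraries had the same order, with 135 and 163 CPM in S38A IP against 117 and 120 CPM in WT IP. The order was not particular to S38A. S38D also stood above WT, with 129 and 117 CPM in S38D input and 140 and 138 CPM in S38D IP. Each IP shares a fraction with its input, so the order in IP is not independent of the inputs. The share of all genes with this order was not computed. The other 6 log2 differences ran from -0.39, for H1FX, to 0.18, for H3F3A. For S38D versus WT 0 of the 7 passed, where 0.00598% of all genes did, and the log2 differences ran from -0.11, for H2AFX, to 0.17, for H2AFY. For S38D versus S38A 0 of 7 passed too, against 0.00598% of all genes, with differences from -0.29, for H2AFY, to 0.34, for H1FX. DESeq2 and voom called 0 of the 7 in each of these comparisons, although DESeq2 called 419 of all genes for S38A versus WT. Scaling the inputs by their spike-in counts moved the median log2 difference of all genes to -0.44 for S38A versus WT, -0.83 for S38D versus WT and -0.40 for S38D versus S38A. On that scale H2AFY stood at 0.06 for S38A versus WT. The 7 mRNAs ran from -0.95 to 0.06 for S38A versus WT, from -1.20 to -0.69 for S38D versus WT and from -0.75 to -0.11 for S38D versus S38A, and 0 of the 7 passed in each.

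Over the 6 groups the order of mean levels differed by gene. H1FX was highest in WT IP (136 ± 31.7 CPM), then S38D IP (96.1 ± 24.4), then S38A IP (61.8 ± 18.7) (SD, n = 2 each). The ranges of these neighbours were apart only narrowly. The nearest values were 114.0 CPM in WT IP against 113.4 in S38D IP, and 78.9 in S38D IP against 75.0 in S38A IP. The share of genes with such gaps was not computed, and the H1FX differences in IP over input between lines did not pass. The 3 inputs followed at 26.5 to 35.1 CPM, with overlapping ranges between neighbours. H2AFX had 107 ± 0.6 CPM in WT IP, 92.6 ± 26.3 in S38D IP and 78.7 ± 5.4 in S38A IP (SD, n = 2 each); these neighbours overlapped, and the inputs lay between 37.5 and 42.5 CPM. H3F3A ran the other way, with the 3 inputs on top at 65.9 to 79.2 CPM and the 3 IP groups below at 43.7 to 50.7 CPM, neighbours within each set overlapping. H2AFZ and H3F3B were both highest in S38D IP, at 239 ± 33.2 and 230 ± 11.3 CPM, and lowest in S38A input, at 149 ± 14.0 and 159 ± 11.2 CPM (SD, n = 2 each). H2AFV ran from 221 ± 29.9 CPM in WT IP to 277 ± 15.3 in S38D IP, and H2AFY from 111 ± 2.2 CPM in WT input to 151 ± 25.0 in S38A input (SD, n = 2 each).

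Likeness of pattern was measured as the root mean square difference of log2 levels over the 12 libraries, each gene centred on its own mean. Within the list H2AFZ and H3F3B were the closest pair, at 0.11, and H3F3A and H1FX the farthest, at 1.17. H2AFX was closer to H1FX, at 0.33, than to any other member. Against the mean profile of the list H3F3B stood at 0.15 and H2AFZ at 0.17, while H1FX stood at 0.67. Many other genes with a mean of at least 20 CPM stood nearer to that profile than some members did. Their share was 95.8% for H1FX, 86.2% for H3F3A, 82.6% for H2AFX, 43.1% for H2AFV and 36.0% for H2AFY. It was 5.07% for H2AFZ and 1.96% for H3F3B. Among 9896 other genes with a mean of at least 20 CPM, the 2 nearest to that profile were ENSG00000141965.3 and ENSG00000102225.11, both at 0.08, which the tables used here do not name.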

How the data were processed

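The authors deposited raw read counts per Ensembl gene and ERCC sequence, 1 table per library. The tools were STAR 2.4.2a, bcl2fastq 2.16.0.10 and DESeq2, and the build was hg19, per the submitters' processing notes. The sources used here do not give the annotation, the counting tool, or whether strand and reads with several matches were considered. Only genes entered library sizes and tests; ERCC counts served to scale inputs in 1 alternative.

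Counts were fitted in R 4.3.3 with edgeR 4.0.16 (filterByExpr with minimum count 10, TMM, glmQLFit, glmQLFTest). IP and input were fitted over 12 libraries, inputs over 6. A standard error is the log2 change over the square root of F. Alternatives used DESeq2 1.42.0, limma 3.58.1, other scalings and filters, the fraction as a block, other sets of libraries and omission of each library. Fits were tested on simulated counts.

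Same-numbered IP and input share a fraction per the labels' protocols, and their deviations correlated at 0.64 in S38A, 0.54 in S38D and 0.28 in WT across genes.

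The members and lists were chosen with earlier results of these data known. All 7 genes described are named; 1 further item is not reported here. The reference table held 59792 genes, 0 with an Ensembl identifier, so lists of histone chaperones, 3′ end factors, other histone variants, short housekeeping mRNAs and HEK293 markers were not analysed here; older symbols of the 7 members matched RefSeq synonyms. Nearest genes were the 2 of smallest distance.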

Additional observations from a re-analysis of the deposited data

Results flagged for a closer look

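H2AFV was lower in IP than in input in both WT fractions and higher in both S38D fractions. Its log2 IP over input was 0.08 and 0.09 in S38D, against -0.38 and -0.18 in WT, and the mean in S38D minus that in WT was 0.368. The edgeR interaction contrast for S38D versus WT gave 0.36 (SE 0.22, unadjusted p = 0.12) and did not pass (adjusted p = 1.00). With the fraction as a block it gave 0.37 (SE 0.15, unadjusted p = 0.034, edgeR adjusted p = 0.99). The 7 mRNAs were looked at over 3 pairs of lines. The first WT IP library, which gave the value of -0.38, was the shallowest of all, and without it the contrast was 0.19.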

How the results depend on the processing

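The number of the 7 mRNAs that passed changed by more than 1.5 times in the following cases; the cause was not tested unless given. For IP versus input in S38A it was 0 and became 3 with DESeq2, 2 with no filter on low counts and 3 with the replicate block. Of all genes these 3 alternatives called 463, 399 and 2079 in S38A. In S38D it was 2 and became 4 with the replicate block, 1 with only the 4 S38D libraries, and 0 to 3 with 1 library left out. In WT it was 3 and became 1 with voom and 0 with only the 4 WT libraries. Of all genes these called 597 and 0, against 1903 in the main fit. The WT number also changed with 1 library left out. Fits on 4 libraries have fewer libraries for the spread. Over the 3 lines it stayed at 4 or 5 of 7. The replicate block changed no call of the 7 mRNAs in the differences between lines or over the 3 lines. For inputs, where a number marks no shared fraction, deviations of same-numbered libraries correlated at -0.07 to 0.22 and the block left 0 of 7 passing. With 1 fraction left out the log2 difference of the H3F3B to H3F3A ratio was 0.80 to 0.88 and of H2AFV to H2AFZ -0.51 to -0.36; 5 fractions cannot give p under 0.0625, so neither can pass there. Without pairing the permutation p of the 2 ratios, adjusted over them, was 0.0043 and 0.011. Of 1267 single values under an alternative, 1208 stayed on the side they were on, 18 gained a call and 41 lost one; 0 changed sign while called in either setting, and 50 changed sign without passing in either. Counts as low as 118, for H3F3A, limit precision.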

Other observations

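H2AFX and H1FX shared a pattern among the inputs that follows neither line nor IP. Both stood higher in the second S38A, first S38D and first WT input than in the other inputs of the same lines: H2AFX had 44.8, 51.5 and 54.4 CPM there, against 30.3, 26.2 and 30.6 CPM in the first S38A, second S38D and second WT input, and H1FX had 29.0, 39.7 and 41.9 CPM against 24.0, 27.5 and 28.3 CPM. These 3 inputs lay above the other 3 for 5.83% of the 9903 genes with a mean of at least 20 CPM, and 20 genes, or 0.202%, had a gap at least as wide as the 0.55 log2 units of H2AFX. The gap of H1FX was 0.04 log2 units. The split was chosen after the values were seen.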
